A study of Homo sapiens with 6 samples.

Results

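The nesprin, SUN and torsin genes are the 8 genes SYNE1, SYNE2, SYNE3, SYNE4, SUN1, SUN2, TOR1A and TOR1AIP1, taken by symbol from the 47470 genes listed in the count files. The list was drawn up by name with no threshold on any value, although earlier results of these data were known, and each gene was compared between VPA-treated and untreated HEK293T cells. HEK293T cells are human, derive from embryonic kidney and express SV40 large T antigen. The untreated cells are labelled WT and received nothing, and the treated cells of the same line received the histone deacetylase inhibitor VPA (valproic acid) at 1 mM for 1 day. RNA-seq was performed on 3 libraries per condition, 6 in all. The labels do not say whether the replicates are separate cultures, so the p-values measure the spread between these libraries, which may be technical, in 1 transformed cell line.

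The LINC complex spans the nuclear envelope and couples the cytoskeleton to the inside of the nucleus. Nesprins, the products of the SYNE genes, sit in the outer nuclear membrane with a short C-terminal KASH domain that reaches into the perinuclear space, where it is held by the SUN domains of SUN1 and SUN2 in the inner nuclear membrane. On the cytoplasmic side the giant forms of nesprin-1 and nesprin-2 bind actin, nesprin-3 binds plectin and nesprin-4 binds kinesin-1, and on the nuclear side SUN proteins meet the lamina and chromatin. TorsinA, encoded by TOR1A, is an ATPase of the endoplasmic reticulum and nuclear envelope lumen, and LAP1, encoded by TOR1AIP1, is the inner nuclear membrane protein that activates it. The comparison asks which of these genes differ in transcript level between treated and untreated cells.

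Depth was alike between the libraries, with 18622267 to 18828495 counts on genes, and 15298 genes passed the filter on low counts and were tested. Each library differed from its replicates by more than counting noise (chi-square 1.62 to 4.63 per gene). The 5 markers of the line reported here (PAX2, EYA1, KRT8, KRT18 and VIM) were all detected, and their sum was 12376 to 12700 normalized counts in untreated and 11171 to 11791 in VPA-treated libraries. VIM made up most of this sum, at 10739 and 8931 normalized counts on average, and all 5 passed the test, with PAX2, KRT8 and KRT18 higher (log2 fold changes 2.26, 1.37 and 0.22) and EYA1 and VIM lower (-0.68 and -0.27, VIM not with ribosomal protein scaling). The summed markers of endothelium (PECAM1, CDH5) reached at most 4.82 normalized counts, and ALB, of liver, at most 1.05. Of the blood markers CD3E had 1 count, PTPRC had 12, all in VPA-treated libraries, and CD68 fell.

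Some RefSeq starts of the 3 nesprin genes that rose are shown first, because the reads of every start of a gene are counted together. Each sequence reads 5′ to 3′ on the strand of the gene up to the base before the start, with capitals on each GC box (GGGCGG on either strand) and with any stretch that overlaps an annotated exon removed, on build GRCh38.p14. The first listed start of SYNE2 lies inside the RefSeq span of that gene. For SYNE1 the second of 4 listed starts, near the 5′ end of the giant form, and the third, 451951 bases inside the gene from the first start, are given, and for SYNE2 and SYNE3 the first start.
SYNE1 start 2 (chr6:152636915-152637140, minus strand): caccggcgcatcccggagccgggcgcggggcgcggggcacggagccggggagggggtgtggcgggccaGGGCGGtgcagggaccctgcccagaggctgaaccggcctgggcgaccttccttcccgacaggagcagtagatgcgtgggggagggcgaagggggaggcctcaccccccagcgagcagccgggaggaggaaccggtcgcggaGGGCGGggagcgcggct
SYNE1 start 3 (chr6:152185412-152185661, minus strand): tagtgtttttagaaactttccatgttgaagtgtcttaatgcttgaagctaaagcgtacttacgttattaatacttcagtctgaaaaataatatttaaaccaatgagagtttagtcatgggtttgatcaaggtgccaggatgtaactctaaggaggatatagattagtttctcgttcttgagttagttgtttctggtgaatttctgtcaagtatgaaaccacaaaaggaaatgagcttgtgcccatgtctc
SYNE2 start 1 (chr14:63852754-63852982, plus strand): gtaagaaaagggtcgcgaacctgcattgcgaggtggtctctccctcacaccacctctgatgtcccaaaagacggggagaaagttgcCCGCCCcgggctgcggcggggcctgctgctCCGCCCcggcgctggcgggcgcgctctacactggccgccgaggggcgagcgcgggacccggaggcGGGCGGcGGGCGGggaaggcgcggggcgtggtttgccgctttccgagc
SYNE3 start 1 (chr14:95516651-95516900, minus strand): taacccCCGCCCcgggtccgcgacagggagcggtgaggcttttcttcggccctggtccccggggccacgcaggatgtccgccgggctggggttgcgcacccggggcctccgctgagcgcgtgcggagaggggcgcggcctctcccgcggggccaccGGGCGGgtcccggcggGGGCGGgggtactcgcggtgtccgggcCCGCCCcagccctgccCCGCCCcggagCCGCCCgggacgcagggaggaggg

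Except for SYNE1 start 3, the printed starts lie in sequence rich in G and C, which does not hold for most starts not printed. Over the full 250-base windows the GC content was 77.2% at SYNE1 start 2, 72.8% at SYNE2 start 1 and 80.8% at SYNE3 start 1, against a median of 58.0% over 35116 RefSeq windows of the same length. SYNE1 start 3 differed, with 35.2% GC and 3 CpG pairs against 28 at start 2, and SYNE2 start 2, 361140 bases after the first, had 36.4% GC and 0 CpG pairs. The GC box was found 2 times in the printed stretch of SYNE1 start 2, 4 times at SYNE2 start 1 and 6 times at SYNE3 start 1, and not at SYNE1 start 3, while 42.6% of all windows and 8 of the 14 member windows hold it. Of these 14 windows, from the 6 members with an entry, 3 held CCAAT (32.0% of all windows), 1 held TATAAA (10.7%) and 0 held CACGTG (6.34%), searched on both strands. SUN1 and TOR1A had no entry in this table. Windows on chromosome 8, where no member lies, were left out of the 35116. These letters describe the windows, and the counts do not say which start was used.

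Of the 8 members 7 passed the filter on low counts, and SYNE4 did not. SYNE1, SYNE2 and SYNE3 rose, TOR1A and TOR1AIP1 fell, and SUN1 and SUN2 did not pass the test (adjusted p under 0.05 in edgeR's quasi-likelihood test). That is 3 of 7 tested members higher and 2 lower, where 32.9% of all tested genes were higher and 30% lower, so the number of members called was near the background in both directions. At the thresholds of the study, which also ask that the log2 fold change be 1 or more in size, 2 members were up-regulated (SYNE1 and SYNE3) and 0 down-regulated, against 12% and 0.503% of all tested genes. The 5 members past the test were also those whose groups did not overlap, 3 higher and 2 lower, where 34.8% and 31% of tested genes had every VPA-treated library above or below every untreated one. The median log2 fold change of the 7 tested members was -0.02, beside 0.0058 for all tested genes. In these bulk libraries fewer cells with a transcript and less RNA per cell cannot be told apart.

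**Figure D1:**
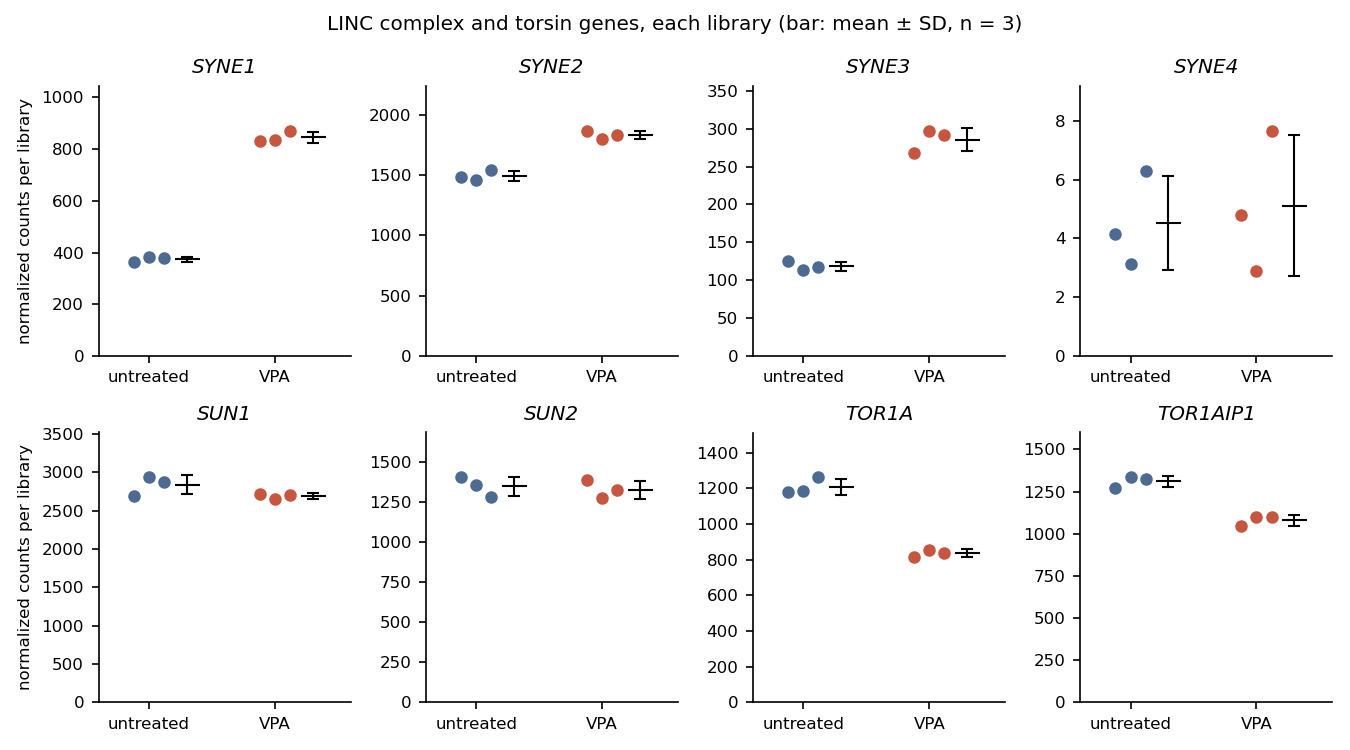
Normalized counts (vertical axis, from 0) of the 8 genes in each of the 3 untreated (blue) and 3 VPA-treated (red) libraries, with the mean ± SD as a black bar. The groups stand apart for SYNE1, SYNE2, SYNE3, TOR1A and TOR1AIP1 and overlap for SYNE4, SUN1 and SUN2.

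SYNE1 encodes nesprin-1, a giant spectrin-repeat protein abundant in muscle and in the brain. The gene occupies bases 152121687 to 152637362 of chromosome 6, minus strand. The untreated libraries had 364, 382 and 377 normalized counts, which are counts scaled by TMM to the mean library, and the VPA-treated ones had 831, 835 and 870. The lowest treated library had more than 2 times the highest untreated one, and the 3 libraries of each condition lay close together. The fold change was 2.26 (log2 fold change 1.17 ± 0.059 SE, 95% interval 1.05 to 1.30, adjusted p = 1.99e-13 in edgeR), so that SYNE1 lies above 90.2% of the tested genes in log2 fold change. Among the 4918 other tested genes with a mean count between 0.5 and 2 times that of SYNE1, 3.6% were up-regulated.

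Because nesprin-1 is abundant in muscle, markers of skeletal and heart muscle were read beside SYNE1. Of the 5 markers 1 was higher and 1 lower, and their sum was 30.4 to 49.2 normalized counts in untreated and 63.2 to 63.6 in VPA-treated libraries. DES, encoding desmin, rose, with 5.18 to 9.42 normalized counts in the untreated and 31.8 to 38.3 in the treated libraries (means 6.62 ± 2.43 and 36.1 ± 3.77 SD, n = 3 each). ACTA1, skeletal actin, was at 33.0 ± 8.61 and 22.1 ± 1.03 (SD, n = 3 each) and passed the test as lower with TMM and with DESeq2 size factors, but not with upper quartile, library totals or ribosomal protein scaling. Ribosomal protein scaling divides each library by the median of its ratios to the geometric mean over 70 ribosomal protein genes. CKM had 22 counts in all, and MYH7 and MYOG, which define striated muscle and its precursors, had 1 count each over the 6 libraries. The part of these genes in the result was not tested.

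SYNE2 encodes nesprin-2, the other giant nesprin, which binds actin in its longest form. The gene occupies bases 63761596 to 64226449 of chromosome 14, plus strand. It had 1486, 1458 and 1542 normalized counts in the untreated and 1867, 1802 and 1834 in the VPA-treated libraries. The groups did not overlap, although the step between them was small beside that of SYNE1. The fold change was 1.23 (log2 fold change 0.29 ± 0.044 SE, 95% interval 0.20 to 0.39), with an adjusted p of 5.62e-06 in edgeR, and the log2 fold change was 0.57 with ribosomal protein scaling. Of the 4233 other tested genes with a mean between 0.5 and 2 times that of SYNE2, 18.5% were higher.

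SYNE3 encodes nesprin-3, which binds plectin and through it the intermediate filaments. The gene occupies bases 95407266 to 95516650 of chromosome 14, minus strand. It had 125, 113 and 117 normalized counts in the untreated and 268, 297 and 292 in the VPA-treated libraries. Every treated library had more than 2 times the highest untreated value. The fold change was 2.41 (log2 fold change 1.27 ± 0.092 SE, 95% interval 1.08 to 1.46), with an adjusted p of 1.12e-10 in edgeR, on 1233 counts over the 6 libraries. SYNE3 thus changed by about as much as SYNE1, with overlapping intervals, at a lower count, where up-regulation was more frequent. Of the 3077 other tested genes with a mean between 0.5 and 2 times that of SYNE3, 15.1% were up-regulated.

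SYNE4, on chromosome 19 from 36003307 to 36008813, encodes nesprin-4, known for its role in hair cells and secretory epithelia. It had 4, 3 and 6 counts in the untreated and 5, 3 and 8 in the VPA-treated libraries, 29 in all. The groups overlapped, and the ratio of treated to untreated counts after scaling to library totals was 1.24 with a 95% interval from 0.559 to 2.8 (exact binomial, covering counting error only). A change smaller than this interval was not detectable at this depth. Without the filter on low counts edgeR gave SYNE4 an adjusted p of 0.864.

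SUN1, on chromosome 7 from 815557 to 874934, encodes one of the main SUN proteins of somatic cells. It had 2695, 2932 and 2876 normalized counts in the untreated and 2723, 2646 and 2698 in the VPA-treated libraries. Untreated replicate 1 lay among the treated libraries and the other untreated libraries above them. The log2 fold change was -0.08 with a 95% interval of -0.16 to 0.01 (adjusted p = 0.13 in edgeR), and it was -0.12 with an adjusted p of 0.0167 without untreated replicate 1. The direction depended on the scaling, with a log2 fold change of -0.10 with DESeq2 size factors (adjusted p = 0.047) and of 0.20 with ribosomal protein scaling (adjusted p = 0.000353), both in edgeR. The replicate block gave -0.08 with an adjusted p of 0.0372.

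SUN2, on chromosome 22 from 38734734 to 38755998, encodes the other main SUN protein. It had 1403, 1359 and 1284 normalized counts in the untreated and 1385, 1273 and 1324 in the VPA-treated libraries. The 2 groups covered nearly the same range. The log2 fold change was -0.02 with a 95% interval of -0.13 to 0.08 (adjusted p = 0.709 in edgeR), and it was 0.25 with ribosomal protein scaling (adjusted p = 0.000279). With TMM both intervals leave out a change of the size seen in SYNE1 or SYNE3.

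TOR1A, on chromosome 9 from 129812942 to 129824136, encodes torsinA, the protein altered in early-onset dystonia. It had 1180, 1184 and 1261 normalized counts in the untreated and 815, 857 and 840 in the VPA-treated libraries. All treated libraries were below all untreated ones. The fold change was 0.693 (log2 fold change -0.53 ± 0.051 SE, 95% interval -0.63 to -0.42), with an adjusted p of 9.37e-09 in edgeR, and 3.84% of the tested genes had a lower log2 fold change. Among the 4976 other tested genes with a mean between 0.5 and 2 times that of TOR1A, 41.1% were lower. TOR1A was lower under each of the 5 scalings, from -0.55 with DESeq2 size factors to -0.26 with ribosomal protein scaling.

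TOR1AIP1, on chromosome 1 from 179882285 to 179920076, encodes LAP1, which also binds lamins. It had 1270, 1334 and 1327 normalized counts in the untreated and 1044, 1100 and 1100 in the VPA-treated libraries. The groups did not overlap, and the step was smaller than that of TOR1A. The log2 fold change was -0.28 ± 0.048 (SE; 95% interval -0.38 to -0.18, adjusted p = 3.38e-05 in edgeR), but it was -0.0043 with an adjusted p of 0.946 with ribosomal protein scaling. Of the 4850 other tested genes with a mean between 0.5 and 2 times that of TOR1AIP1, 43.9% were lower, so that a decrease was common at this level of counts.

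Levels of different genes can be compared only per length, so normalized CPM was divided by the length of all exons of the gene in GENCODE 44 (CPM per kb). In untreated cells TOR1A was at 16.1 ± 0.607 CPM per kb, TOR1AIP1 at 14.9 ± 0.396, SUN1 at 12.8 ± 0.559 and SUN2 at 8.62 ± 0.385 (SD, n = 3 each). The nesprin genes were lower, with SYNE2 at 2.47 ± 0.0706, SYNE1 at 0.421 ± 0.0102, SYNE3 at 0.347 ± 0.0185 and SYNE4 at 0.0949 ± 0.0338 CPM per kb (SD, n = 3 each). No 2 neighbours in this order overlapped between the untreated libraries. In VPA-treated cells the level of SYNE1 was 0.95 ± 0.0243 and that of SYNE3 0.837 ± 0.0446 CPM per kb (SD, n = 3 each), still below SYNE2 at 3.03 ± 0.0532. TOR1A moved from the first to the third place at 11.2 ± 0.281 CPM per kb, after TOR1AIP1 at 12.3 ± 0.371 and SUN1 at 12.1 ± 0.177, and these last 2 overlapped. SYNE1 lay above 14.3% of 14272 tested genes with a length in untreated and above 18.1% in VPA-treated cells. The order of the first 3 rests on the length used. With the longest transcript SUN1 came first at 33.7 CPM per kb in untreated cells, before TOR1A at 28.2 and TOR1AIP1 at 18.4, while the other 5 genes kept their places. By that length the order was the same in VPA-treated cells, so TOR1A did not change its place between the conditions.

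**Figure D2:**
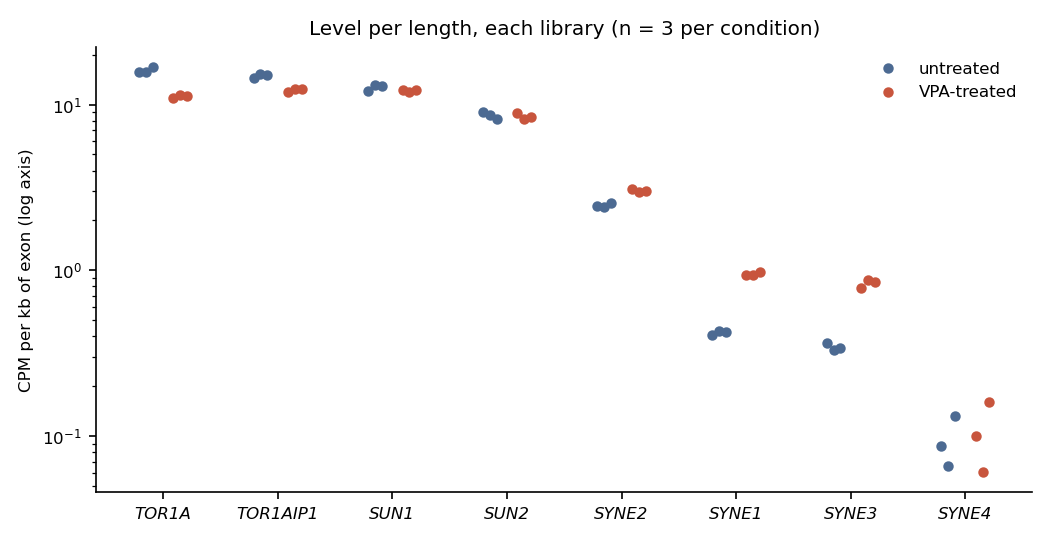
CPM per kb of exon (vertical axis, logarithmic) of the 8 genes, ordered by their untreated mean, in each untreated (blue) and VPA-treated (red) library. The nesprin genes lie below the SUN and torsin genes in both conditions, and SYNE1 and SYNE3 stay below SYNE2 after treatment.

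Summed over the 4 nesprin genes the level rose from 3.33 ± 0.105 to 4.92 ± 0.0912 CPM per kb, while SUN1 and SUN2 together were at 21.4 ± 0.438 and 20.6 ± 0.53 CPM per kb (SD, n = 3 each). These sums are descriptions and were not tested. SYNE2 held 73.9% to 74.4% of the nesprin sum in the untreated and 60.3% to 62.9% in the VPA-treated libraries. SYNE1 went from 12.3% to 13.3% in the untreated libraries to 19.0% to 19.5% in the treated ones, and SYNE3 from 9.92% to 11.1% to 16.0% to 18.0%. SYNE2 thus had the highest level per length of exon among the 4 nesprin genes in every library. As each count pools giant and short forms, these shares do not rank the numbers of transcripts.

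The balance between partners was read as the ratio of raw counts of 2 genes within a library, which no scaling of the libraries changes. There were 4 such ratios, tested with an exact two-sided permutation test over the 6 libraries, for which the smallest possible p is 0.1. The count of SYNE1 was 0.245, 0.262 and 0.244 times that of SYNE2 in the untreated and 0.445, 0.463 and 0.474 times in the VPA-treated libraries. This ratio was higher in every treated library, by 0.88 on the log2 scale (exact permutation p = 0.1, adjusted over the 4 ratios 0.133). The ratio of SUN1 to SUN2 was 1.92, 2.16 and 2.24 in the untreated and 1.97, 2.08 and 2.04 in the treated libraries. Here the groups overlapped, with a difference of -0.05 on the log2 scale (exact permutation p = 0.5, adjusted 0.5).

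For the torsin genes, the ratio of TOR1A to its activator gene TOR1AIP1 was 0.929, 0.888 and 0.95 in the untreated and 0.781, 0.779 and 0.763 in the VPA-treated libraries. It was lower in every treated library, by -0.25 on the log2 scale (exact permutation p = 0.1, adjusted 0.133). TOR1B encodes torsinB, the closest paralog of torsinA, and lies 1660 bases from TOR1A with the 3′ ends of the genes facing each other. The ratio of TOR1B to TOR1A was 0.506, 0.534 and 0.498 in the untreated and 0.732, 0.684 and 0.729 in the treated libraries. It was higher in every treated library, by 0.48 on the log2 scale (exact permutation p = 0.1, adjusted 0.133). None of these 3 differences could have reached a p of 0.05 in a design of this size.

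**Figure D3:**
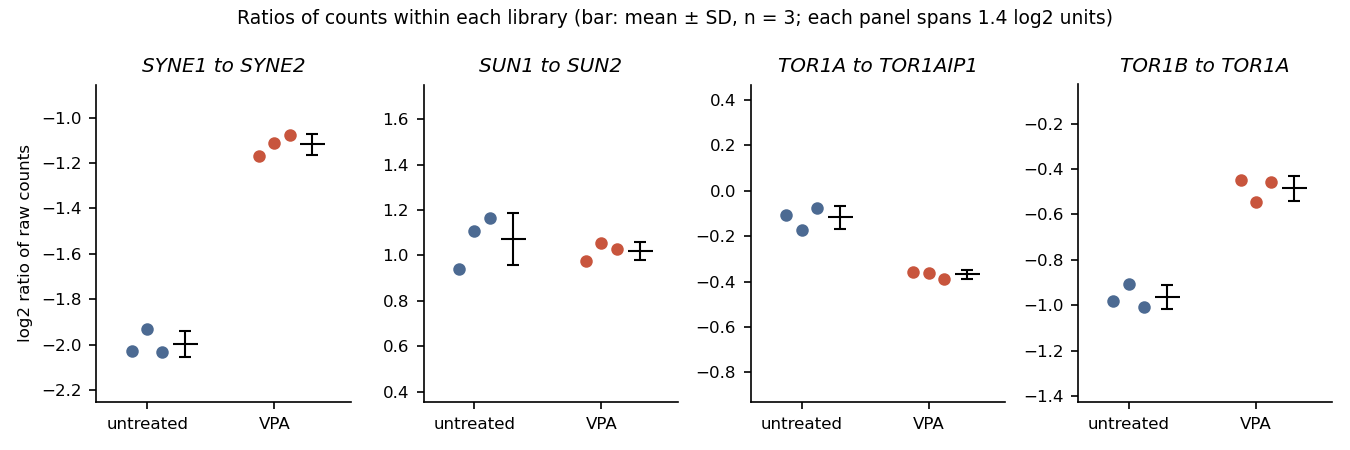
Log2 ratio of the raw counts of 2 genes (vertical axis, 1.4 units in each panel) in each untreated (blue) and VPA-treated (red) library, with the mean ± SD as a black bar. The groups stand apart for SYNE1 to SYNE2, TOR1A to TOR1AIP1 and TOR1B to TOR1A, and overlap for SUN1 to SUN2.

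Each gene count pools all transcripts of a gene. GENCODE 44 lists 25 coding transcripts of SYNE1 with 24 distinct starts, from 630 to 27708 bases, the longest with 146 exons, and 4 of them end at the stop codon of the longest. For SYNE2 there are 13 coding transcripts of 536 to 21842 bases, of which 4 share the stop codon of the longest, and for SYNE3 5 of 2615 to 13557 bases, of which 4 do. Whether giant or short forms, or forms with and without the KASH end, carried the increase of SYNE1 and SYNE2 cannot be told from these counts.

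The genes beside the members were read for overlap and for changes at the same place. Of the 22 listed genes that overlap a member or lie next to it, 12 were tested, 1 rose and 4 fell. Over all tested genes 32.9% were higher and 30% lower, so these counts are not read as a local effect. ESR1, an estrogen receptor gene that overlaps the 3′ end of SYNE1 by 7933 bases on the opposite strand, had 7 counts over the 6 libraries, and the antisense gene SYNE1-AS1 had 1, beside 3719 for SYNE1. ESR2, the other estrogen receptor gene, ends 257 bases from the end of SYNE2 on the opposite strand. It rose from 82.8, 64.9 and 63.0 to 126, 135 and 149 normalized counts, a log2 fold change of 0.96 ± 0.130 (SE; adjusted p = 1.51e-06 in edgeR). The libraries were made with a strand-specific protocol, but whether the counting used strand is not given in the sources used here. If it did not, reads that run past the end of SYNE2 could not be told from reads of ESR2. SNHG10, next to SYNE3, had a log2 fold change of -0.14 with an adjusted p of 0.235 (edgeR).

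GTPBP1 overlaps SUN2 by 8382 bases on the opposite strand and had a log2 fold change of -0.25 with an adjusted p of 2.18e-05 in edgeR, though 0.03 with ribosomal protein scaling, and the same limit holds for reads of this overlap. The other 3 neighbours that fell were C9orf78 beside TOR1A (-0.26), ALKBH6 beside SYNE4 (-0.21) and JOSD1 beside SUN2 (-0.12), each above 0 with ribosomal protein scaling. TOR1AIP2, which lies 4481 bases from TOR1AIP1 and points away from it, had 1379, 1357 and 1153 normalized counts in untreated and 1179, 1201 and 1180 in VPA-treated libraries, and the groups overlapped (log2 fold change -0.13, adjusted p = 0.0591 in edgeR). It passed as lower with DESeq2 size factors (-0.15, adjusted p = 0.0223 in edgeR) and as higher with ribosomal protein scaling (0.15, adjusted p = 0.0408 in edgeR).

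Of 40 related genes, grouped by role, 35 were tested, 5 were higher and 16 lower, beside 32.9% higher and 30% lower over all tested genes. The counts depend on the scaling, with 12 higher and 7 lower with library totals and 22 higher and 2 lower with ribosomal protein scaling. Among the other SUN genes SPAG4 and SUCO were tested and did not pass, with log2 fold changes of 0.42 ± 0.231 and 0.08 ± 0.053 (SE), though SUCO was higher with upper quartile, library totals and ribosomal protein scaling and SPAG4 with the last. SUN3 and SUN5, known from the testis, had 6 and 0 counts. The KASH genes KASH5, of meiosis, and IRAG2, of lymphoid and other cells, were not tested, with 0 and 4 counts for KASH5 and 6 and 29 for IRAG2 in the untreated and the VPA-treated libraries.

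All 5 other torsin and cofactor genes were tested, 0 were higher and 1 was lower, beside 32.9% and 30% of all tested genes. The lower gene was TOR3A, at 1669 ± 118 and 1459 ± 46.8 (SD, n = 3 each). Its log2 fold change was -0.19 with TMM and 0.08 with ribosomal protein scaling. TOR1B was at 619 ± 19 and 598 ± 12.6 normalized counts (SD, n = 3 each). Its log2 fold change was -0.05 with a 95% interval of -0.17 to 0.07, and 0.22 with ribosomal protein scaling. This interval leaves out a decrease of the size of that in TOR1A. TOR2A had a log2 fold change of 0.05 (edgeR adjusted p = 0.598), which was 0.32 with ribosomal protein scaling (edgeR adjusted p = 0.00113), and TOR4A of -0.28 (edgeR adjusted p = 0.242). Over these 5 genes 2 were lower with DESeq2 size factors, 0 passed in either direction with library totals, and ribosomal protein scaling gave 3 higher and 0 lower.

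Among the partners in the lamina and the inner nuclear membrane 12 of 13 genes were tested, 1 was higher and 9 lower, beside 32.9% and 30% of all tested genes, and ribosomal protein scaling gave 5 higher and 2 lower. EMD, on chromosome X, is listed at 0, as are all 1437 genes listed for that chromosome, so its expression could not be read from these counts. LMNA, encoding lamins A and C, to which SUN proteins bind, rose from 1122, 1075 and 1128 to 1555, 1472 and 1481 normalized counts (log2 fold change 0.44 ± 0.047 SE). LMNB1, encoding lamin B1, fell from 5357, 5231 and 5158 to 3282, 3257 and 3391 (-0.67 ± 0.039 SE), and BANF1, which bridges chromatin and the envelope, fell from 2907, 2620 and 2608 to 1666, 1765 and 1750 (-0.65 ± 0.048 SE). These 3 genes kept their direction under all 5 scalings, while LBR, at -0.12, was at 0.15 with ribosomal protein scaling.

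Of the 16 cytoskeletal partners 4 were higher and 6 lower with TMM, beside the same 32.9% and 30%, and 12 higher and 0 lower with ribosomal protein scaling. KIF5C, a neuronal heavy chain of kinesin-1, rose from 361, 340 and 386 to 1775, 1863 and 1865 normalized counts (log2 fold change 2.34 ± 0.057 SE), and KIF5A, another neuronal heavy chain, had 0.70 ± 0.060 (SE). The other higher genes, named after their values were seen, were PLEC, which encodes the nesprin-3 partner plectin (0.30 ± 0.051 SE), and FHOD1, a formin that binds nesprin-2 (0.25 ± 0.052 SE). The ubiquitous heavy chain KIF5B, also named after its values were seen, had 2842 ± 117 and 2484 ± 27.7 normalized counts (SD, n = 3 each) and a log2 fold change of -0.19, which was 0.08 with ribosomal protein scaling. The dynein regulators NDEL1 and PAFAH1B1 had log2 fold changes of -0.38 ± 0.051 and -0.26 ± 0.039 (SE), past the test in edgeR with TMM, and -0.11 and 0.02 with ribosomal protein scaling.

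**Figure D4:**
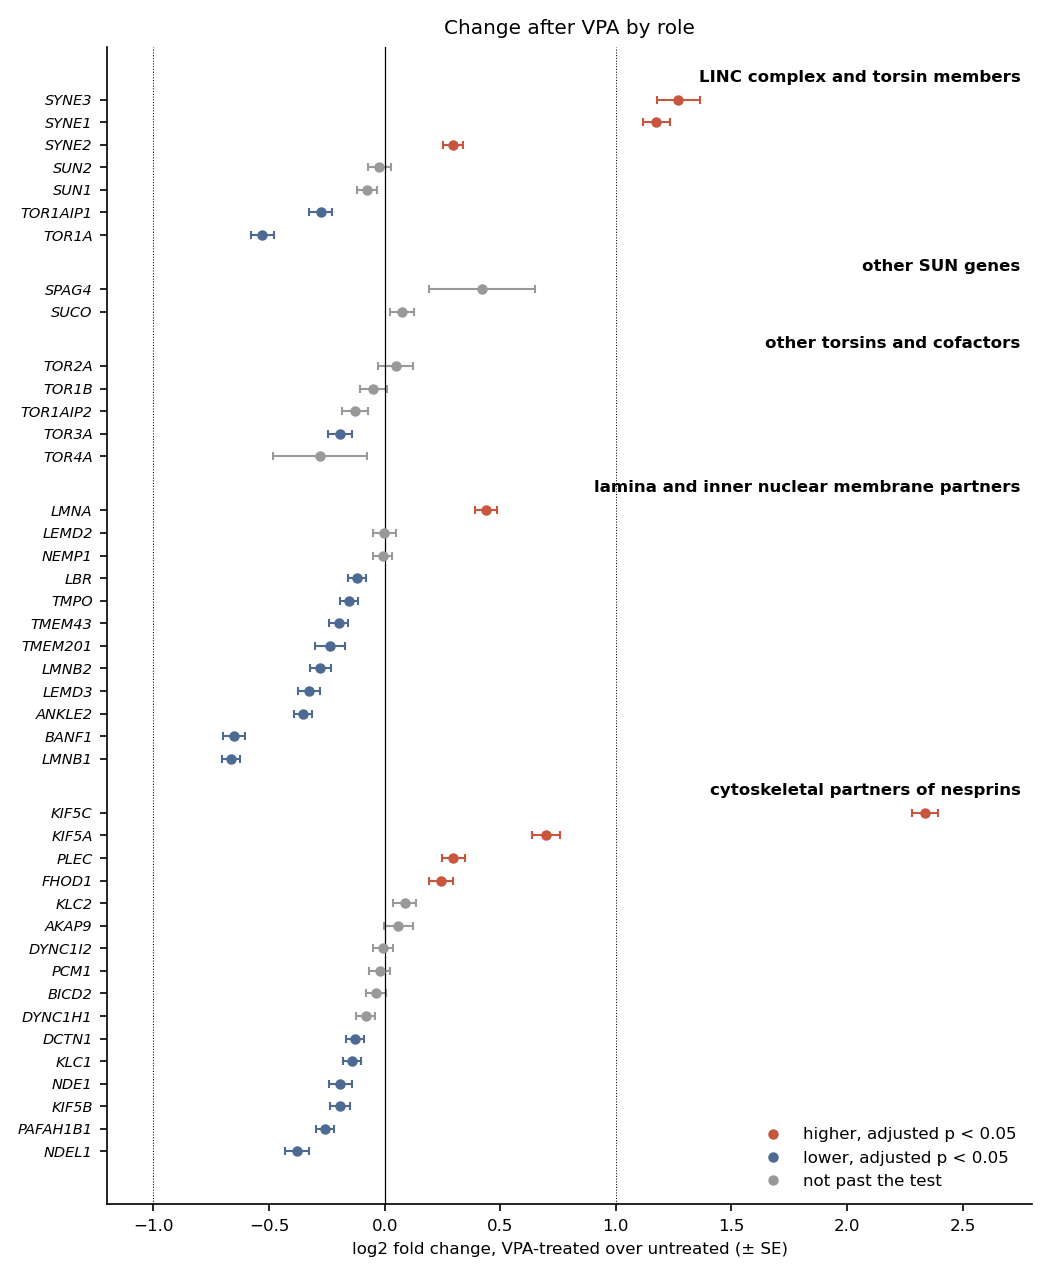
Log2 fold change of VPA-treated over untreated cells with its SE (horizontal axis) for the 7 tested members and the 35 tested related genes, grouped by role, with dotted lines at -1 and 1. SYNE1, SYNE3 and KIF5C lie beyond 1, and most lamina and inner nuclear membrane genes lie below 0 with TMM.

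The genes whose profile was most like that of a member were sought among 12195 other tested genes whose mean was 50 normalized counts or more, by the distance between centred log2 CPM over the 6 libraries. As the 6 libraries fall into 2 conditions, this measure mostly finds genes with the same fold change. For SYNE1 the nearest were MYB (distance 0.0685), TP53I11 (0.0772) and KLC3 (0.0826), with log2 fold changes of 1.16, 1.15 and 1.12. The nearest gene was TMEM67 for SYNE2 (0.0368), ILDR2 for SYNE3 (0.0859), IQCC for TOR1A (0.0434) and KDM3B for TOR1AIP1 (0.0211).

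The scaling of the libraries shifted all genes together, with a median log2 fold change over the tested genes of 0.0058 with TMM, 0.14 when scaled to library totals and 0.28 when scaled to ribosomal protein genes. Relative to that median SYNE1 was at 1.17, SYNE3 at 1.27, SYNE2 at 0.29, SUN2 at -0.03, SUN1 at -0.08, TOR1AIP1 at -0.28 and TOR1A at -0.53 under TMM, library totals and ribosomal protein scaling alike. This agreement was fixed in advance, because a change of scaling adds nearly the same amount to every gene. SYNE1, SYNE2 and SYNE3 were above 0 and past the test, and TOR1A below 0 and past it, under all 5 scalings.

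**Figure D5:**
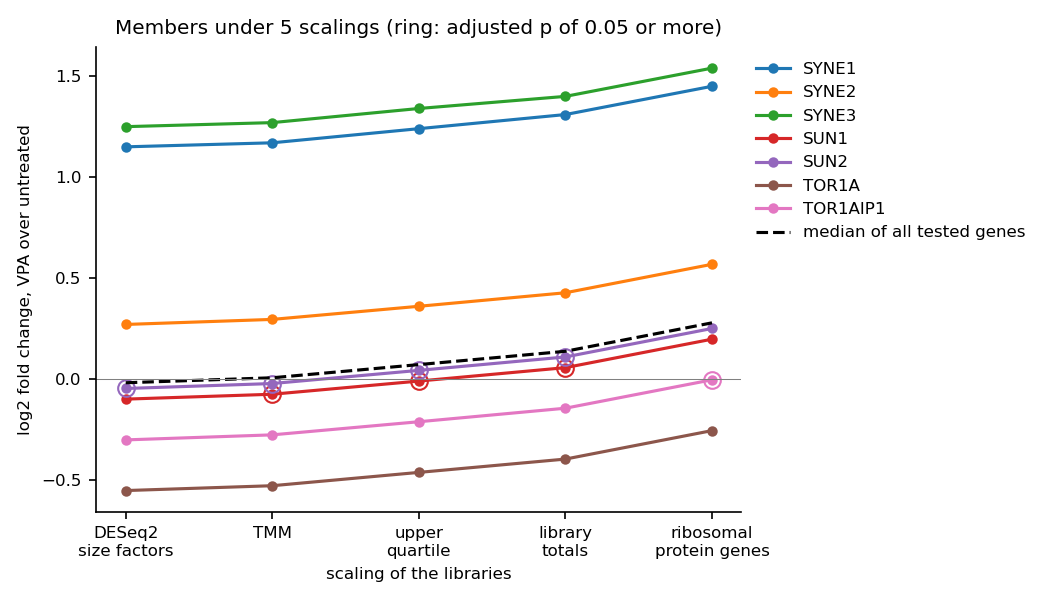
Log2 fold change (vertical axis) of the 7 tested members under 5 scalings of the libraries, with rings where the adjusted p was 0.05 or more and the median of all tested genes as a dashed line. The lines are parallel, SUN1 and SUN2 cross 0, and TOR1AIP1 reaches 0 with ribosomal protein scaling.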

How the data were processed

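RNA was sequenced from 3 untreated and 3 VPA-treated HEK293T samples. Raw counts per gene, without normalization, were deposited by the authors, who had used SOAPnuke for read cleaning, STAR for alignment (hg38) and htseq-count for counting. The submitters' processing notes name STAR 2.7.10b and HTSeq 2.0.1, and the paper's methods name a later HTSeq release. The libraries were strand-specific, and the annotation release used, like whether counting used strand, is not given in the sources used here. Reads of the 5 summary lines were left out, at 6.80% to 7.69% of reads off genes, 1.97% to 2.10% ambiguous and 2.81% to 2.92% not unique.

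All 15298 genes that passed filterByExpr (count minimum 10) were fitted with edgeR 4.0.16 in R 4.3.3 (TMM, robust quasi-likelihood, prior count 0.125, condition as the one term), with Benjamini-Hochberg adjustment over all of them. The SE is the log2 fold change over the root of F, and 95% intervals use its degrees of freedom. Totals of 18622267 to 18828495 counts on genes set the precision. The biological coefficient of variation was 3.83%. On simulated counts for this comparison 193 of 200 changed genes were called over 15074 genes, and 13 unchanged genes were called. The simulation changed far fewer genes than differ in these data, so it does not bear on the choice of scaling. It held no fold changes as small as those of SYNE2, TOR1A and TOR1AIP1. Coordinates are RefSeq on GRCh38.p14, strands and lengths are from GENCODE 44, and sequences are from RefSeq, with 6 of 8 members matched by symbol. Named were the members, their neighbours, the nearest profiles, all related genes in lists of up to 5 tested genes, and in longer lists the 2 largest and the 2 smallest changes past the test, with exceptions stated in the text. The members and lists were chosen with earlier results of these data known. DESeq2 1.42.0, other scalings and filters, the replicate block and leaving out each library were alternatives. One marker of the line and one gene read as a check of the treatment are not reported here.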

Additional observations from a re-analysis of the deposited data

How the results depend on the processing

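Of 243 recomputed values for 18 results, 225 kept their direction and their side of the threshold or, for counts of genes, lay within 1.5 times the main count. Such counts still moved, with members lower going from 2 to 3 with DESeq2 size factors and with the replicate block, and related genes from 5 higher and 16 lower to 7 and 12 with upper quartile. With ribosomal protein scaling 5 members were higher and 1 lower, in place of 3 and 2, since SUN1 (0.20) and SUN2 (0.25) were then higher (adjusted p = 0.000353 and 0.000279 in edgeR) and TOR1AIP1 was at -0.0043 (adjusted p = 0.946). With library totals SUN1 was at 0.056 and SUN2 at 0.11, and with upper quartile SUN2 was at 0.043, none past the test. These shifts lie in the scaling itself, which moves all genes together. The share of all tested genes called is given for TMM only, so counts under other scalings are not set against a background. Related genes went from 5 higher and 16 lower to 12 and 7 with library totals and to 22 and 2 with ribosomal protein scaling. SUN1 passed as lower with DESeq2 size factors (-0.10, adjusted p = 0.047), and DESeq2 itself gave -0.10 with an adjusted p of 0.0972, so its call is not settled. With the longest transcript as length, 5 of 8 members kept their place in the order of levels. For the 4 ratios the exact permutation p could not fall below 0.1. Their side of the threshold was thus fixed in advance, and only their direction could change.

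With each library left out the log2 fold change stayed between 1.15 and 1.19 for SYNE1, 0.27 and 0.31 for SYNE2, 1.23 and 1.31 for SYNE3, -0.12 and -0.058 for SUN1, -0.064 and 0.0053 for SUN2, -0.55 and -0.50 for TOR1A and -0.31 and -0.25 for TOR1AIP1. SUN1 passed without untreated replicate 1 (adjusted p = 0.0167). Members lower numbered 2 to 3.

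The replicate block changed 1 member's call, that of SUN1 (-0.075, adjusted p = 0.0372), and left 3 members higher. Same-numbered libraries had correlated deviations of 0.310, 0.0846 and 0.237 over genes whose mean was 50 counts or more, not all above 0.1, so the numbers are not taken to pair the libraries, although each library correlated best with its own number. SYNE4 failed the filter on low counts and was not recomputed in each setting, and DESeq2 gave it an adjusted p of 0.919. Like SYNE4, the genes KASH5, IRAG2, SUN3 and SUN5 failed the filter on low counts, so the main fit gave them no call.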
